A study of Mus musculus with 32 samples.

Results

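The mouse mitochondrial genome (16299 bases, chromosome M of GRCm39) carries 37 genes, and these were the 37 rows whose symbols begin with mt- in each of 3 deposited gene tables (74021, 74016 and 74021 rows). They comprised 13 genes for proteins (mRNAs), 2 for ribosomal RNAs and 22 for transfer RNAs (tRNAs), and the 3 classes were kept apart. The study asked how LAG-3, an inhibitory immune checkpoint receptor, relates to the state of spinal cord microglia in SOD1G93A mice, a model of amyotrophic lateral sclerosis that carries a mutant human SOD1 transgene (B6.Cg-Tg(SOD1*G93A)1Gur/J). The first table held CD11b+/CD45int microglia sorted from the lumbar spinal cord of non-transgenic wild-type (WT) mice (n = 4) and of SOD1G93A mice at postnatal day (P) 140, split by surface LAG-3 into LAG-3-low (n = 5) and LAG-3-high (n = 5) fractions. The second held sorted microglia of SOD1G93A mice that were LAG-3+/+ or LAG-3-/- (Lag3tm1Doi, targeted disruption) at P120 and P140 (n = 3 in each of 4 groups), so every mouse there carried the transgene. The third held whole lumbar spinal cord of P140 SOD1G93A mice, LAG-3+/+ (n = 3) and LAG-3-/- (n = 3). The age of the WT mice of the first table, and whether libraries of the low and the high fraction shared mice, were not given in the sources used here. The labels do not say that replicates came from separate animals, while the study's text counts mice for the cord libraries, so p-values measure the spread between these libraries. The study's sample list gives both sexes in every group, and no term for sex was fitted.

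The mitochondrial genome is transcribed from both strands into long precursors, from which mRNAs and rRNAs are released largely by cutting out the tRNAs that lie between them. Its 13 proteins are core subunits of the respiratory chain: 7 of complex I (mt-Nd1 to mt-Nd6 and mt-Nd4l), 1 of complex III (mt-Cytb), 3 of complex IV (mt-Co1 to mt-Co3) and 2 of the ATP synthase, complex V (mt-Atp6 and mt-Atp8). All other subunits of these complexes, and the factors that copy, transcribe and translate the mitochondrial genome, are encoded in the nucleus. The plus strand of the reference held 28 of the 37 genes, and the minus strand held 9, namely mt-Nd6 and 8 tRNA genes. The genes are packed: 9 neighbouring pairs overlap, 6 of them on the same strand and 3 on opposite strands. Reads from an overlap cannot be told apart between its genes on the same strand, nor on opposite strands where a library does not keep strand, as for the microglial kit. Whether strand was used in counting was not given in the sources used here. The stretches that bear on the values below are shown from the GRCm39 genome, in each case with the bases shared by both genes of a pair in capitals, except in the fourth, where the capitals mark the whole of the sequence opposite mt-Ts1.
mt-Atp8 into mt-Atp6 (chrM:7897-7999, plus strand): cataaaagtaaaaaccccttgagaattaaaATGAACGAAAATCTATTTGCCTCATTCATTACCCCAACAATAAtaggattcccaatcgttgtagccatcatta
mt-Nd4l into mt-Nd4 (chrM:10137-10203, plus strand): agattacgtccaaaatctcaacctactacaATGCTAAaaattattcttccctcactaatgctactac
mt-Nd5 into mt-Nd6 (chrM:13522-13595, plus strand, mt-Nd6 lying on the minus strand): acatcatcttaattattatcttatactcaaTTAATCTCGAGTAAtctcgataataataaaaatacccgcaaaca
The 3′ end of mt-Co1 and the complement of mt-Ts1 (chrM:6842-6938, plus strand): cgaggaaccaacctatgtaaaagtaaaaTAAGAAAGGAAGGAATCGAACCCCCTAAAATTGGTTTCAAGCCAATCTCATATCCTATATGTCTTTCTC
mt-Ts1 itself, the gene of a serine tRNA (chrM:6870-6938, minus strand): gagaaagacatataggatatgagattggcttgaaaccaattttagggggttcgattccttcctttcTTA
mt-Tq, the gene of the glutamine tRNA (chrM:3772-3842, minus strand): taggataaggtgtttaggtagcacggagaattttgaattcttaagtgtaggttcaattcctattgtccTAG
In the first stretch the capitals open with the ATG start codon of mt-Atp6 and close with the TAA stop codon of mt-Atp8, an overlap of 43 bases. The other overlaps shown were 7 bases for mt-Nd4l and mt-Nd4, 14 bases for mt-Nd5 and mt-Nd6, 3 bases for mt-Co1 and mt-Ts1, and 3 bases for mt-Ti and mt-Tq.

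Library totals ran from 9403286 to 22850356 in the LAG-3 sort, from 23981240 to 49512341 in the stage series and from 19429873 to 26994340 in cord. The 7 microglial markers were all detected in every microglial library, and Lag3 followed the labels, at 146 to 195 CPM (counts scaled to a common library size) in the LAG-3-high sort, 34.8 to 57.8 in its LAG-3-low counterpart and 0.508 to 9.99 in WT, at 24.5 to 62.9 in LAG-3+/+ and 0.0239 to 0.462 in LAG-3-/- microglia, and at 43.4 to 74.5 against 5.50 to 5.72 in cord. Within LAG-3+/+ microglia Lag3 was lower at the later age, at 53.4 to 62.9 CPM at P120 and 24.5 to 28.1 CPM at P140. Its log2 fold change was -1.19 ± 0.52 (SE, adjusted p = 0.136 in the edgeR test used below), which was not called. The study reports Lag3 mRNA rising with disease in whole lumbar cord. Some libraries stood apart. The 10 neutrophil markers, among them S100a8 and S100a9, summed to 1.17 to 6.23 CPM in LAG-3-high, where between 1 and 8 of the 10 were at 0, but to 25811 to 70811 CPM in LAG-3-low libraries and 6187 to 60431 CPM in WT. In the stage series the sum was 2015 to 2804 CPM in P120 LAG-3+/+, 0.279 to 3.78 in P120 LAG-3-/-, 0.195 to 2965 in P140 LAG-3+/+ and 0.87 to 5167 in P140 LAG-3-/-. The P140 LAG-3+/+ libraries and replicate 1 of P140 LAG-3-/- also had fewer genes with a count, 18896 to 20489, than the other stage libraries, 23459 to 24942.

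The share of a library taken up by mitochondrial transcripts was smallest in LAG-3-low microglia and largest in LAG-3-/- cord. In the LAG-3 sort it was 2.99, 0.842, 1.46 and 3.60% in the 4 WT libraries, 0.736, 0.847, 0.675, 0.756 and 0.584% in the 5 LAG-3-low libraries and 0.989, 1.17, 1.10, 1.16 and 1.25% in the 5 LAG-3-high libraries. Both SOD1G93A fractions were therefore apart, while the WT libraries spread from below the lowest LAG-3-high library to above every other sorted library. The group means in the same order were 2.22% ± 1.29 (SD, n = 4), 0.72% ± 0.0975 (SD, n = 5) and 1.13% ± 0.0953 (SD, n = 5). For the mRNAs and rRNAs together, the LAG-3-high share was 1.575-fold the LAG-3-low share, or 0.66 on the log2 scale, and it was 0.58 on the log2 scale with the neutrophil markers left out of the total. The part of neutrophil RNA in this difference was otherwise not tested. In bulk libraries, fewer cells of a type and less RNA per cell cannot be told apart.

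In the stage series the share was lower in LAG-3-/- than in LAG-3+/+ microglia at both ages. It was 1.65, 1.41 and 1.56% in P120 LAG-3+/+ and 0.947, 1.27 and 1.12% in P120 LAG-3-/- libraries, so that the lowest LAG-3+/+ library lay above the highest LAG-3-/- library. At P140 it was 1.61, 1.87 and 1.72% in LAG-3+/+ and 1.52, 1.31 and 1.21% in LAG-3-/- libraries, again without overlap. The ratio of group means, LAG-3-/- to LAG-3+/+, was 0.722 at P120 and 0.775 at P140 for mRNAs and rRNAs together. Between ages the groups overlapped in both genotypes, with P140 to P120 ratios of 1.125 in LAG-3+/+ and 1.209 in LAG-3-/-. Whole cord gave the opposite order of genotypes, with 6.25, 4.60 and 6.78% in LAG-3+/+ and 14.8, 14.7 and 7.99% in LAG-3-/- libraries, a ratio of 2.127. Here replicates 1 and 2 of LAG-3-/- lay far above the others, and replicate 3 lay just above the highest LAG-3+/+ library. Counting error was small against these spreads, since the 95% Wilson half-widths of the shares were 0.0909% to 0.695% of their values. They cover counting error only, as reads without molecular identifiers are not independent molecules. No test was run on the shares. Cord and microglia differed in tissue and extraction, and by the study's methods, though not by the labels, in kit.

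**Figure D1:**
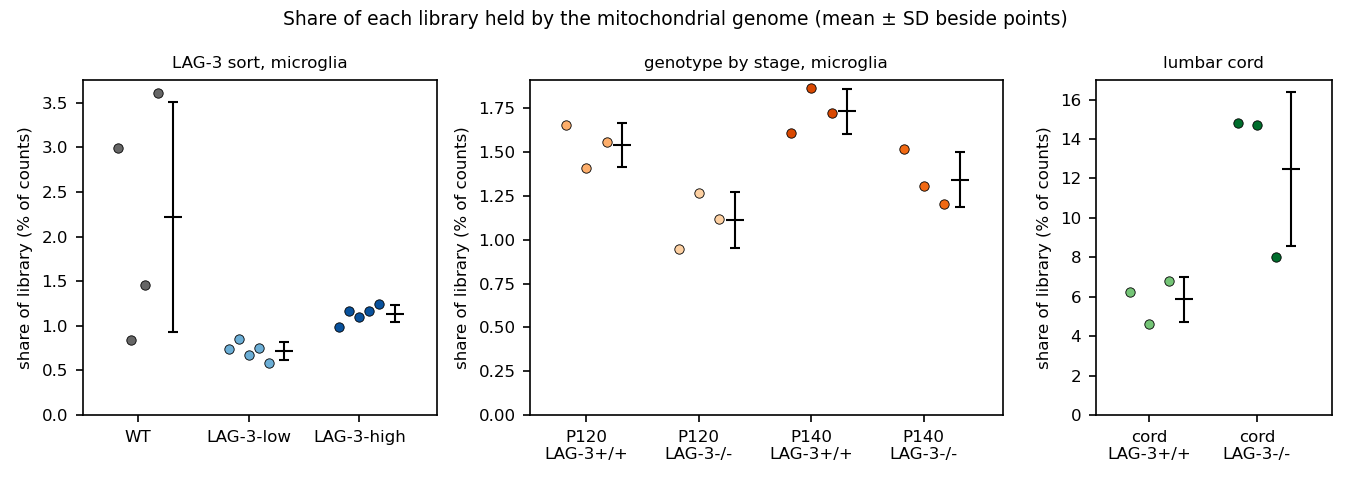
Share of all counts held by the mitochondrial mRNAs, rRNAs and tRNAs, in percent, for each library of the LAG-3 sort, the stage series and the cord (points, with the group mean and SD as bars). LAG-3-high libraries lie above LAG-3-low libraries, LAG-3-/- microglia lie below LAG-3+/+ microglia at both ages, and LAG-3-/- cord lies above LAG-3+/+ cord.

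Levels between genes were compared per kilobase of gene. On that scale mt-Atp6, a subunit of the proton channel of the ATP synthase, was the highest mRNA in every microglial group and in LAG-3+/+ cord, and mt-Co1, the catalytic subunit of complex IV, was the highest in LAG-3-/- cord. mt-Atp6 stood at 7923 ± 6390.2 CPM per kilobase in WT (SD, n = 4), 1712 ± 255 in the low (SD, n = 5) and 3496 ± 304 in the high fraction (SD, n = 5). In LAG-3-high microglia mt-Co3 followed at 3156 ± 167, mt-Cytb at 1722 ± 197 and mt-Co1 at 1448 ± 117 CPM per kilobase, and mt-Co1 and mt-Atp8, at 1389 ± 152, did not differ beyond their spread. The complex I genes mt-Nd3, mt-Nd4l and mt-Nd5 were at the bottom of the microglial order, at 27.2 ± 4.75, 112 ± 18.9 and 198 ± 19.6 CPM per kilobase in LAG-3-high microglia. The highest and lowest mRNA differed by 33.5-fold to 78.7-fold in the stage groups, by 90.8-fold to 216-fold in the sorted groups and by 105-fold and 146-fold in the cord groups. The lowest mRNA in cord was mt-Nd6 of the minus strand. The 12 mRNAs of the plus strand, which are cut from a shared precursor, differed by 21.3-fold in LAG-3+/+ and 14.3-fold in LAG-3-/- cord. The place of mt-Nd3 is uncertain, because the nuclear rows Gm71269 and Gm28438, described with the other nuclear copies, match its sequence at 99.8% and 99.7% identity. With every matching nuclear row added to its mitochondrial gene, an alternative chosen after these values were seen, mt-Nd3 stood at 132 ± 19.4 CPM per kilobase in LAG-3-high microglia (SD, n = 5), and mt-Nd4l was the lowest mRNA in all 7 microglial groups. The highest and lowest mRNA then differed by 31.1-fold in LAG-3-high, 44.5-fold in LAG-3-low and 23.9-fold to 41.8-fold in the stage groups, and the 216-fold range of WT stayed. In cord the plus-strand mRNAs then differed by only 6.46-fold in LAG-3+/+ and 8.93-fold in LAG-3-/-. With mt-Nd6 included, the cord ranges were 147-fold and 116-fold.

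**Figure D2:**
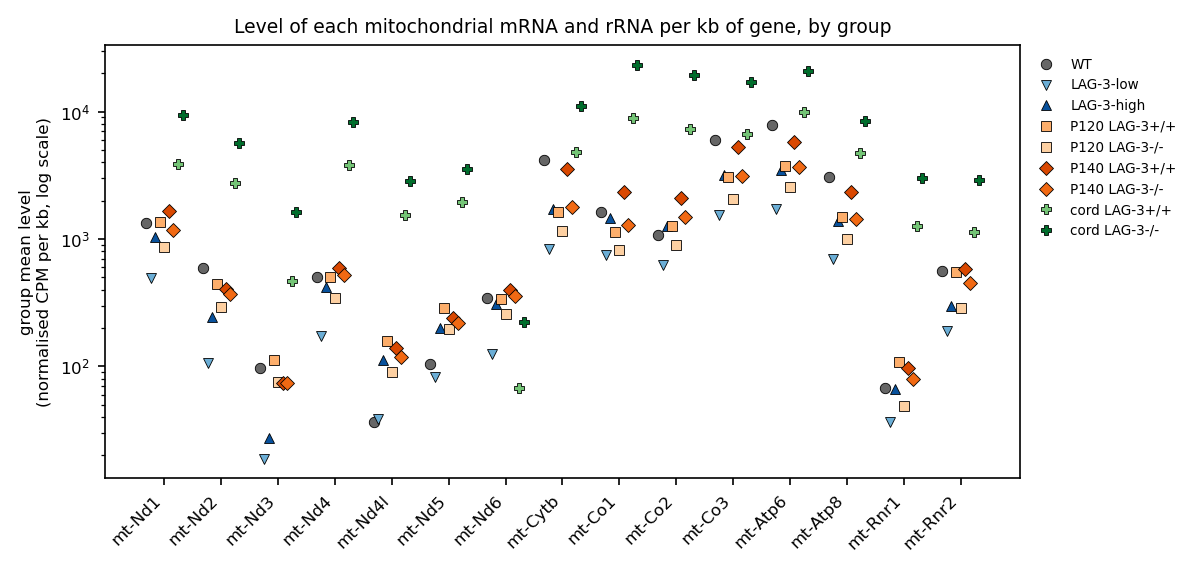
Group mean level of the 13 mRNAs and 2 rRNAs in normalised CPM per kilobase of gene (log axis), with 1 series of points for each of the 9 groups. mt-Atp6 is highest in the 7 microglial groups and in LAG-3+/+ cord, mt-Nd3 and mt-Nd4l lie near the bottom in microglia, and mt-Nd6 is the lowest mRNA in cord.

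The make-up of the mRNA pool does not depend on how libraries are scaled against each other, and it also differed between groups. The 7 complex I mRNAs held 14.5% ± 1.75 of the pool in WT (SD, n = 4), 17.4% ± 0.778 in the low (SD, n = 5) and 19.0% ± 0.48 in the high fraction (SD, n = 5). Single libraries gave 14.8, 16.7, 14.2 and 12.4% in WT, 17.0, 16.7, 18.6, 16.9 and 17.5% in the low fraction and 19.4, 19.3, 18.6, 18.3 and 19.3% in the high fraction, so that the highest WT library lay just below the lowest LAG-3-low library and the fractions overlapped. In the stage series P140 LAG-3+/+ microglia were set apart: complex I held 17.8, 16.4 and 16.3% there against 25.0, 25.4 and 24.3% in P120 LAG-3+/+, 23.5, 23.6 and 25.2% in P120 LAG-3-/- and 18.2, 23.4 and 25.5% in P140 LAG-3-/- libraries. Replicate 1 of P140 LAG-3-/- was the library nearest to the P140 LAG-3+/+ libraries, and it was also the one that shared their low number of genes with a count. The part of that number in the difference was not tested. In cord complex I held 30.5, 29.0 and 30.7% in LAG-3+/+ and 27.8, 27.6 and 26.6% in LAG-3-/- libraries, without overlap.

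mt-Cytb, the cytochrome b of complex III, showed the reverse order in microglia. It held 19.2, 19.2 and 19.0% of the pool in P140 LAG-3+/+, against 14.3, 15 and 13.9% in P120 LAG-3+/+, 14.9, 14.3 and 15.2% in P120 LAG-3-/- and 18, 13.9 and 13% in P140 LAG-3-/- libraries. In the sort it held 21.6% ± 1.72 in WT (SD, n = 4), 15.6% ± 0.843 in the low (SD, n = 5) and 15.6% ± 1.03 in the high fraction (SD, n = 5). The fractions thus did not differ in this share beyond their spread, and WT lay above both. The 3 complex IV mRNAs were the largest class, with 38.1% ± 3.47 in WT, 45.6% ± 1.55 in the low and 44.3% ± 0.886 in the high fraction, and 45.1% ± 0.561 in LAG-3+/+ against 50.1% ± 1.20 in LAG-3-/- cord (SD, n = 3 each). No test was run on these shares.

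**Figure D3:**
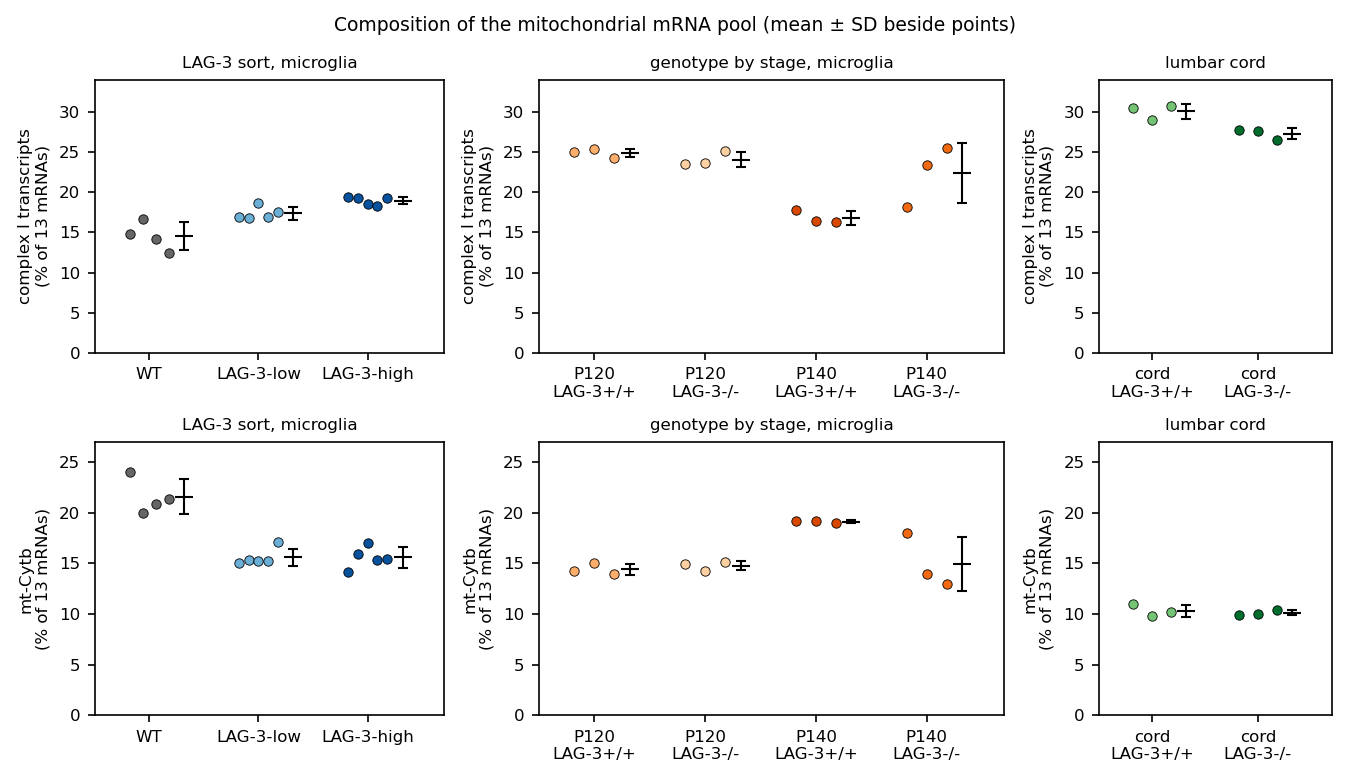
Share of the 13-mRNA pool held by the 7 complex I mRNAs and by mt-Cytb, in percent, for each library (points, with the group mean and SD). P140 LAG-3+/+ microglia hold 16.3% to 17.8% complex I mRNA against 23.5% to 25.4% at P120, with mt-Cytb higher at P140, and replicate 1 of P140 LAG-3-/- lies with the P140 LAG-3+/+ libraries.

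Gene by gene, the sorted fractions of SOD1G93A microglia were compared first. All 19 mitochondrial genes that passed the filter on low counts had higher fitted levels in LAG-3-high microglia, and 5 of the 7 complex I mRNAs rose, where a call needed a Benjamini-Hochberg adjusted p under 0.1 in edgeR's quasi-likelihood test and a log2 fold change beyond 1 in size. Of all 16508 genes tested, 3.49% were called and 0.818% were called higher. mt-Nd5, a proton-pumping subunit of complex I, was at 160.3, 171, 167, 133 and 115 CPM in the low fraction and 351, 351, 347, 334 and 424 CPM in the high fraction, after scaling by trimmed mean of M-values (TMM) factors. The lowest LAG-3-high library was thus well above the highest LAG-3-low library, with a log2 fold change of 1.27 ± 0.21 (SE, adjusted p = 0.00377). mt-Nd4l, a small membrane subunit whose last bases are shared with mt-Nd4, was at 12.8, 13, 14.3, 9.50 and 7.59 CPM in the low fraction and 30.2, 35.8, 28.1, 30.8 and 42.1 CPM in the high fraction. Its groups were also apart, and its log2 fold change was 1.55 ± 0.35 (SE, adjusted p = 0.0268). mt-Nd4 itself, another pumping subunit, was at 238, 287, 272, 217 and 188 against 526.4, 641, 548, 516 and 650.2 CPM, a change of 1.26 ± 0.30 (SE, adjusted p = 0.0321). mt-Nd6, the minus-strand mRNA, changed by 1.28 ± 0.32 (SE, adjusted p = 0.0428), and mt-Nd1, which lies where complex I binds its quinone, by 1.07 ± 0.30 (SE, adjusted p = 0.0755).

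mt-Co1 was past the adjusted threshold but under the fold minimum, with 0.96 ± 0.21 (SE, adjusted p = 0.0233). mt-Cytb had a log2 fold change of 1.05 with an adjusted p of 0.179 in the same edgeR fit, mt-Nd2 of 1.20 and 0.23, and mt-Nd3 of 0.53 and 0.863. The values for mt-Co2, mt-Co3, mt-Atp6 and mt-Atp8 were 1.02, 1.02, 1.03 and 1.01, all uncalled. The calls therefore separated mRNAs whose fitted changes were alike, and no test of a difference between complex I and the other mRNAs was run. Of the 13 mRNAs, 12 had every LAG-3-high library above every LAG-3-low library, the exception being mt-Nd3, whereas 8.95% of all genes did. With the matching nuclear rows added, mt-Nd3 was at 16.4, 20.3, 17.1, 15.7 and 12.2 CPM in the low fraction and 43.0, 50.3, 38.1, 42.6 and 55.0 CPM in the high fraction, so that all 13 mRNAs were without overlap, and its log2 fold change was 1.49 (edgeR adjusted p = 0.166). The median log2 fold change was 1.05 over the 13 mRNAs and -0.02 over all genes. Without TMM factors all 19 stayed positive but none was called, where 0.212% of all genes were called higher, with mt-Nd5 at 0.90 and mt-Nd4l at 1.17 and the median of all genes at -0.40. mt-Nd1 lost its call whichever of the 10 libraries was left out. The number called was 3 when replicate 4 of LAG-3-low or replicate 5 of LAG-3-high was left out. Over all genes those fits called 89 of 16188 and 94 of 16353 higher. With a term for replicate number in the fit the number called was 1, where 0.575% of all genes were called higher. Whether the fractions shared mice is not known. The neutrophil marker sums above moved with these groups. So did the sums of the 5 monocyte and macrophage markers, 160.5 to 403 CPM in the low and 2.53 to 11.6 CPM in the high fraction, of the 5 T and NK cell markers, 3.11 to 34.7 and 0.0469 to 0.211 CPM, and of the 5 astrocyte markers, 2.29 to 14.7 and 21.1 to 57.4 CPM. Of these, between 2 and 3, 3 and 4, and 0 and 2 were at 0 in LAG-3-high libraries. Their part was not tested.

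WT microglia held the widest range of any sorted group, and the low fraction lay mostly below it. In LAG-3-low against WT, 15 of the 19 tested genes fell and none rose, where 21.9% of all genes were called and 11% were called lower. mt-Cytb was at 6584, 1306, 2683 and 8613 CPM in the WT libraries and 897, 1145, 906, 958 and 843 CPM in the LAG-3-low libraries. Every LAG-3-low library was below every WT library, although the WT values themselves spanned from 1306 to 8613 CPM, and the log2 fold change was -2.34 ± 0.39 (SE, adjusted p = 0.0017). mt-Atp6 was at 6517, 1203, 2854 and 11009.5 against 1135, 1442, 1054, 1204 and 993 CPM, with -2.21 ± 0.43 (SE, adjusted p = 0.00428). mt-Atp8, its neighbour in the same overlap, changed by -2.16 ± 0.38 (SE, adjusted p = 0.00275) and mt-Co3 by -1.95 ± 0.42 (SE, adjusted p = 0.00733). Among complex I mRNAs, mt-Nd3 changed by -2.37, mt-Nd2 by -2.46, mt-Nd1 by -1.42, mt-Nd4 by -1.52 and mt-Nd6 by -1.45, all called, as were mt-Co1 at -1.12 and mt-Rnr2 at -1.56.

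The 4 genes that did not pass were mt-Rnr1 (-0.89), mt-Co2 (-0.77), mt-Nd5 (-0.35) and mt-Nd4l (0.07, which ran from -0.11 to 0.25 with 1 library left out). mt-Nd4l was at 13.4, 9.59, 14.1 and 6.60 CPM in WT, so its WT and LAG-3-low libraries overlapped throughout. Of the 13 mRNAs 3, mt-Cytb, mt-Nd4 and mt-Atp8, had groups that did not overlap, against 5.95% of all genes lower without overlap. The count lay between 14 and 17 with any 1 library left out. The WT libraries with the highest mitochondrial shares, replicates 1 and 4, had neutrophil marker sums of 6187 and 60431 CPM, and replicate 2, with the smallest share, had 44507 CPM. Replicate 4 also had the fewest genes with a count of all libraries, 17031. Endothelial markers summed to 6.46 to 27 CPM in WT and 45.3 to 77.2 CPM in LAG-3-low, with Flt1 called higher (9.49) and Pecam1 lower (-1.68). The part of these markers was not tested.

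LAG-3-high microglia differed from WT in both directions. Here 8 of the 19 genes fell and 1 rose, where 27% of all genes were called, 14.9% lower and 12.1% higher. mt-Nd4l rose, with a log2 fold change of 1.61 ± 0.38 (SE, adjusted p = 0.00937), and every LAG-3-high library (28.1 to 42.1 CPM) was above every WT library (6.60 to 14.1 CPM). mt-Nd5, at 266, 123, 149 and 225 CPM in WT, also had separate groups, with 0.92 ± 0.22 (SE, adjusted p = 0.0106), which is under the fold minimum. The genes that fell were mt-Nd3 (-1.85), mt-Cytb (-1.28), mt-Nd2 (-1.26), mt-Atp6 (-1.18), mt-Atp8 (-1.15) and the tRNAs mt-Tq, mt-Tp and mt-Ts1. The value of mt-Nd3 rested on how reads were split: with the matching nuclear rows added it was -0.65 (edgeR adjusted p = 0.4) and not called. mt-Co3 (-0.93), mt-Rnr2 (-0.91), mt-Nd6 (-0.17), mt-Nd4 (-0.26), mt-Nd1 (-0.35), mt-Co1 (-0.16), mt-Rnr1 (-0.03) and mt-Co2 (0.24) did not pass. This comparison leaned on single WT libraries: 1 gene was lower without WT replicate 4, and 4 were without WT replicate 1 or without LAG-3-high replicate 1, 3 or 4. Neutrophil markers separated LAG-3-high from WT by the sums above, and monocyte and macrophage markers were at 38.8 to 485 CPM in WT against 2.53 to 11.6 CPM in LAG-3-high, and astrocyte markers at 0 to 10.6 against 21.1 to 57.4 CPM. Microglial markers summed to 25864 to 41645 CPM in WT and 22299 to 22936 CPM in LAG-3-high. Endothelial markers summed to 6.46 to 27 and 67.3 to 92.3 CPM, with Flt1 called higher (10.31) and Pecam1 lower (-2.42). These parts were not tested. The comparisons of both fractions with WT share the 4 WT libraries.

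In LAG-3+/+ SOD1G93A microglia, the mRNAs for complexes III, IV and V rose between P120 and P140 with TMM scaling. They were called for all 6 genes, with no minimum fold change applied to the stage series, and none of the 7 complex I mRNAs passed in either direction, though mt-Nd3 passed as lower, at -0.83 (edgeR adjusted p = 0.0584), with the matching nuclear rows added. Of all 18669 genes tested, 27.4% were called and 11.9% were called higher, and the median log2 fold change of all genes was -0.22. mt-Cytb was at 2075, 1806 and 1738 CPM at P120 and 3425, 4659 and 4089.7 CPM at P140, without overlap and with a log2 fold change of 1.12 ± 0.28 (SE, adjusted p = 0.0187). mt-Co1 was at 1897, 1691 and 1673 and 3008, 4145 and 3591 CPM, also apart, with 1.03 ± 0.24 (SE, adjusted p = 0.0149). mt-Co3 and mt-Co2, the other complex IV subunits, changed by 0.78 ± 0.23 (SE, adjusted p = 0.0355) and 0.75 ± 0.21 (SE, adjusted p = 0.0311). The ATP synthase mRNAs changed by 0.65 ± 0.24 (SE, adjusted p = 0.0775) for mt-Atp8 and 0.62 ± 0.23 (SE, adjusted p = 0.0842) for mt-Atp6. Each of the 6 had its P140 libraries above its P120 libraries, as did 16.8% of all genes.

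The complex I mRNAs ran from -0.61 to 0.30 on the same scale. mt-Nd3 was at 48.1, 28.3 and 40.6 CPM at P120 and 21.2, 27.5 and 27.9 CPM at P140 (log2 fold change -0.61). mt-Nd5 was at 601, 503 and 471 and 440.0, 463 and 416 CPM (-0.26). The remaining values were -0.18 for mt-Nd4l, -0.14 for mt-Nd2, 0.24 for mt-Nd4, 0.23 for mt-Nd6 and 0.30 for mt-Nd1, with the rRNAs at -0.15 for mt-Rnr1 and 0.09 for mt-Rnr2, and of these mt-Nd4, mt-Nd6, mt-Nd1 and mt-Rnr2 turned negative without TMM factors. The scaling set where zero lay: without TMM factors, which ran from 0.734 to 0.855 in P140 LAG-3+/+ and from 1.06 to 1.16 in P120 LAG-3+/+ libraries, 2 mRNAs were higher (mt-Cytb at 0.62 and mt-Co1 at 0.53) and 5 genes were lower (mt-Nd3 at -1.11, mt-Nd5 at -0.74, mt-Nd4l at -0.67, mt-Rnr1 at -0.66 and mt-Nd2 at -0.65), with the median of all genes at -0.70 and 5.2% of all genes called higher and 22.1% lower. Without TMM factors mt-Co3, mt-Co2, mt-Atp8 and mt-Atp6 lost their calls, at 0.28, 0.24, 0.15 and 0.12. The gap between mt-Cytb and the complex I mRNAs does not depend on scaling, as the pool shares above show. Of that pool mt-Atp6 held 19.6% ± 0.727 at P120 and 18.5% ± 0.564 at P140. mt-Atp8 held 2.32% ± 0.131 and 2.24% ± 0.174 (SD, n = 3 each). The ages overlapped in both shares. The count of 6 fell to 2 without replicate 2 of P120 LAG-3+/+ or replicate 2 of P140 LAG-3+/+. Those fits called 1348 of 20114 and 1593 of 20573 genes higher. The count fell to 3 without replicate 3 of P120 LAG-3+/+, where 1352 of 20034 genes were called higher. With all libraries 2219 of 18669 genes were.

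LAG-3-/- microglia gave no call between the ages. No mitochondrial gene passed, where 0% of the 18669 genes did. Of the 21 tested mitochondrial genes 11 had an unadjusted edgeR p below 0.05, as did 1658 of all 18669 genes. DESeq2 called 1 mitochondrial gene higher, mt-Co2, where it called 1.92% of all genes higher. The fitted values were positive for 20 of 21, with 0.66 for mt-Co1, 0.72 for mt-Rnr1, 0.61 for mt-Co3, 0.63 for mt-Rnr2, 0.63 for mt-Cytb and 0.74 for mt-Co2. mt-Nd3, at -0.01, was the exception, and was at 0.33 with the matching nuclear rows added. mt-Cytb was at 1118, 1544 and 1280.1 CPM at P120 and 3050.2, 1739 and 1318 CPM at P140, with replicate 1 far above the other P140 libraries, so that the groups overlapped. The other complex I mRNAs lay between 0.14 for mt-Nd5 (-0.13 without TMM factors) and 0.60 for mt-Nd4, mt-Nd1 being at 0.45, mt-Nd2 at 0.35, mt-Nd6 at 0.47 and mt-Nd4l at 0.39, with mt-Atp6 at 0.51 and mt-Atp8 at 0.52.

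The difference between the genotypes' age effects was tested as an interaction. It passed for 0 of the 21 mitochondrial genes, where 0.171% of all genes were called. An unadjusted edgeR p below 0.05 was reached by 2541 of all 18669 genes. Of the 21 mitochondrial genes 1 reached it, namely mt-Rnr1 with 0.87 ± 0.35 (SE, adjusted p = 0.312). DESeq2 called none, where it called 6.97% of all genes. The interaction values were positive for all 7 complex I mRNAs, from 0.14 to 0.60 (mt-Nd3, or 1.16 with the matching nuclear rows added), and negative for all 6 mRNAs of complexes III, IV and V, from -0.01 to -0.48. Without TMM factors mt-Co2, mt-Co3, mt-Atp6 and mt-Atp8 turned positive, at 0.20, 0.03, 0.10 and 0.08.

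Loss of LAG-3 at P120 gave no call among the mitochondrial genes, although every mRNA and rRNA had a lower fitted level. The 0 calls of 21 stood beside 0.0107% of all genes. An unadjusted edgeR p below 0.05 was reached by 11 of the 21 and by 551 of all 18669 genes. DESeq2 called 3 lower (mt-Rnr1, mt-Rnr2 and mt-Nd1), beside 0.53% of all genes. mt-Co1 was at 1897, 1691 and 1673 CPM in LAG-3+/+ and 1021, 1556 and 1233 CPM in LAG-3-/- libraries, with -0.47 ± 0.24 (SE, adjusted p = 1.0). Of the mRNAs and rRNAs mt-Rnr1 had the lowest value, -1.15 ± 0.25 (SE, adjusted p = 0.776), followed by mt-Rnr2 at -0.93. The mRNAs lay between -0.80 for mt-Nd4l and -0.38 for mt-Nd6, with mt-Cytb at -0.51, mt-Atp6 at -0.54 and mt-Nd5 at -0.54. For 14 of the 15 mRNA and rRNA genes, all but mt-Nd6, the LAG-3-/- libraries were below all LAG-3+/+ libraries, whereas 6.63% of all genes tested had groups separated in that direction. These genes are read from the same libraries and move together with the mitochondrial share of each library, so they are not 14 independent observations. The neutrophil marker sum also separated these groups, as given above, and its part was not tested.

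At P140 3 mitochondrial mRNAs were lower in LAG-3-/- than in LAG-3+/+ microglia, where 10.2% of all genes were called and 3% were called lower. mt-Cytb was at 3425, 4659 and 4089.7 CPM in LAG-3+/+ against 3050.2, 1739 and 1318 CPM in LAG-3-/-, and changed by -0.99 ± 0.27 (SE, adjusted p = 0.0669). mt-Co1 was at 3008, 4145 and 3591 against 2733, 1800.0 and 1478 CPM and changed by -0.84 ± 0.24 (SE, adjusted p = 0.0737), and mt-Co3 changed by -0.76 ± 0.23 (SE, adjusted p = 0.0823). In each case replicate 1 of LAG-3-/- lay next to the LAG-3+/+ libraries and replicates 2 and 3 lay lower. mt-Atp6 (-0.65), mt-Atp8 (-0.70), mt-Nd1 (-0.51) and mt-Co2 (-0.50) did not pass, nor did mt-Rnr2 (-0.38) or mt-Nd3 (0.02, or -0.07 with RLE size factors). mt-Rnr1 (-0.28), mt-Nd4l (-0.23), mt-Nd6 (-0.15), mt-Nd4 (-0.20), mt-Nd5 (-0.15) and mt-Nd2 (-0.11) were uncalled too, and turned positive, 0.05 to 0.22, without TMM factors. The count of 3 was unsteady, and so were the calls over all genes. It was 0 without replicate 2 or 3 of either genotype. Over all genes those fits called 90 of 20573 and 126 of 20275 lower for LAG-3+/+, and 12 of 20220 and 14 of 20259 for LAG-3-/-. The count was 6 without replicate 1 of LAG-3+/+ (822 of 20490 genes lower) and 7 without replicate 1 of LAG-3-/- (1701 of 20508). DESeq2 called 7 lower, beside 10.2% of all genes. A fit of these 2 groups alone called 0 mitochondrial genes and 0 of all 15091 genes tested.

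**Figure D4:**
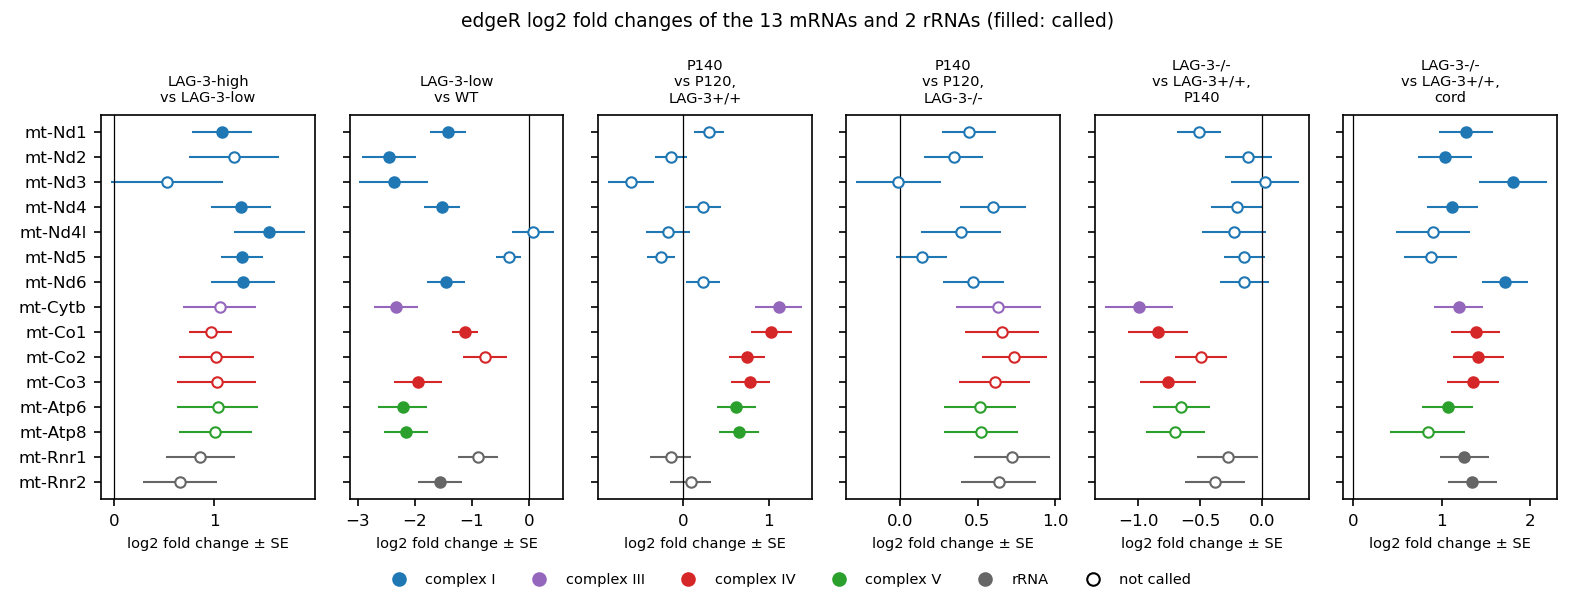
Log2 fold changes (points) with their SE (bars) from edgeR for the 13 mRNAs and 2 rRNAs in 6 comparisons, coloured by complex, filled where the gene passed the threshold of that table. Complex I mRNAs hold the 5 filled points of LAG-3-high against LAG-3-low, complexes III, IV and V hold the 6 filled points of P140 against P120 in LAG-3+/+ microglia, and 12 of 15 points are filled in cord.

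Whole cord showed the broadest change. Of the 15 mRNA and rRNA genes 12 rose in LAG-3-/- cord and none fell, where 7.52% of the 17702 genes tested were called and 4.37% were called higher, and without the fold minimum 13 of 15 were called higher against 23.1% of all genes. mt-Co1 was at 14319, 10615 and 16213 CPM in LAG-3+/+ and 42313, 42471 and 22629.6 CPM in LAG-3-/- libraries. The groups were apart, with replicates 1 and 2 of LAG-3-/- close together and replicate 3 much nearer to LAG-3+/+, and the log2 fold change was 1.38 ± 0.27 (SE, adjusted p = 0.00257). mt-Nd6, transcribed from the other strand, was at 43.2, 29.8 and 31.9 against 147, 121 and 76.3 CPM, with 1.72 ± 0.26 (SE, adjusted p = 0.002). mt-Nd3 was at 157, 134 and 192 against 759.7, 658 and 279 CPM and 1.81 ± 0.39 (SE, adjusted p = 0.0127), but with the matching nuclear rows added it was at 498, 475.5 and 630.9 against 1608, 1760.0 and 594 CPM, the groups overlapped, and the change was 1.30 (edgeR adjusted p = 0.0447). mt-Co2 changed by 1.42, mt-Co3 by 1.36, mt-Rnr2 by 1.35, mt-Nd1 by 1.28, mt-Rnr1 by 1.26, mt-Cytb by 1.19, mt-Nd4 by 1.12, mt-Atp6 by 1.07 and mt-Nd2 by 1.04, all called.

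The 3 genes that did not pass were mt-Nd5 at 0.88 ± 0.30 (SE, adjusted p = 0.0439), mt-Nd4l at 0.91 ± 0.42 (SE, adjusted p = 0.143) and mt-Atp8 at 0.84 ± 0.42 (SE, adjusted p = 0.166), of which mt-Nd5 lay past the adjusted threshold and under the fold minimum. In 11 of the 15 genes, all but mt-Nd2, mt-Nd5, mt-Nd4l and mt-Atp8, the genotypes did not overlap, against 25.5% of all genes higher without overlap, and with the matching nuclear rows added 8 of the 13 mRNAs did not. Without TMM factors all 15 stayed positive, from 0.68 to 1.65, but mt-Nd2 (0.89), mt-Atp6 (0.91) and mt-Nd4 (0.97) lay under the fold minimum, so that 9 were called, where 2.74% of all genes were called higher. Some cell type markers moved with genotype in the same libraries: oligodendrocyte markers summed to 16509 to 17766 CPM in LAG-3+/+ and 23297 to 28775 CPM in LAG-3-/- cord, astrocyte markers to 13199 to 15462 and 6962 to 10750.1, and microglial markers to 1156 to 1531 and 775 to 1041, while neuronal markers overlapped, at 3065 to 4092 and 3836 to 4062. Their part in the mitochondrial difference was not tested.

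The rRNAs were a minor part of these libraries. mt-Rnr1 (chrM:70-1024) and mt-Rnr2 (chrM:1094-2675), the small and large ribosomal RNAs of the mitochondrial ribosome, together held 0.0928% ± 0.0537 of counts in WT (SD, n = 4), 0.037% ± 0.00818 in the low (SD, n = 5) and 0.0459% ± 0.00947 in the high fraction (SD, n = 5). In the stage series they held 0.107% ± 0.0112, 0.0593% ± 0.0105, 0.0795% ± 0.00829 and 0.0756% ± 0.0106 of counts in P120 LAG-3+/+, P120 LAG-3-/-, P140 LAG-3+/+ and P140 LAG-3-/- microglia (SD, n = 3 each), and in cord 0.312% ± 0.0485 and 0.699% ± 0.219 (SD, n = 3 each). The count of mt-Rnr2 was 6.38 to 17.9 times that of mt-Rnr1 in microglial libraries and 1.49 to 1.63 times in cord libraries, a gap in which tissue and library kit cannot be told apart.

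The minus strand was represented very differently in microglia and cord. mt-Nd6, its single mRNA (chrM:13552-14070), held 0.667 to 1.54% of the mRNA pool in microglial libraries and 0.0505 to 0.104% in cord libraries. In the sort the share was 1.02, 1.14, 0.721 and 0.667% in WT, 1.14, 0.85, 1.30, 0.99 and 1.13% in the low fraction and 1.35, 1.24, 1.22, 1.24 and 1.26% in the high fraction, so that LAG-3-high libraries spread least. Reads from the plus-strand RNA opposite mt-Nd6 cannot be told apart from its own in libraries that do not keep strand. By the study's methods the cord libraries were made with a directional kit, while the labels name the kit of the microglia for them as well, so tissue and kit cannot be told apart here either.

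The tRNA genes, 59 to 75 bases long, were sparse in every table. In both microglial tables all 22 had some count, in sums of 8470 in the sort and 12423 in the stage series, but 18 and 16 of the 22 did not pass the filter on low counts. Minus-strand genes held 95.3% and 95.7% of these tRNA counts although they are 8 of the 22 genes, and mt-Ts1 alone held 64.4% and 71.7%. In cord 4 tRNAs had any count, namely mt-Ts1 with 27, mt-Tl1 with 2, mt-Te with 2 and mt-Tq with 1, and none could be tested. The capitals in the plus-strand stretch shown above, opposite mt-Ts1, begin with the last 3 bases of mt-Co1, TAA, which are TTA at the end of mt-Ts1 on its own strand. Whether the mt-Ts1 counts stem from that strand or from plus-strand RNA running on from mt-Co1 cannot be told apart in libraries without strand.

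mt-Ts1 was at 45.8, 19.3, 22.1 and 77.5 CPM in WT, at 21.1, 21.2, 20.5, 15.9 and 22.7 CPM in the high fraction and at 12.9, 13.5, 10.9, 10.6 and 8.41 CPM in the low fraction. It fell in LAG-3-low against WT, by -1.87 ± 0.42 (SE, adjusted p = 0.00883) on the log2 scale, and in LAG-3-high against WT, by -1.02 ± 0.41 (SE, adjusted p = 0.0905), and did not pass between the fractions, at 0.85 ± 0.39 (SE, adjusted p = 0.403). Its order over the groups thus ran WT, LAG-3-high, LAG-3-low, with WT overlapping LAG-3-high. mt-Tq was at 23.9, 9.15, 9.49 and 35.9 CPM in WT and 1.43, 1.52, 1.15, 1.74 and 1.0 CPM in LAG-3-low libraries, with -3.84 ± 0.62 (SE, adjusted p = 0.00128). Its 2 highest WT libraries, replicates 1 and 4, were the WT libraries with the largest mitochondrial share. mt-Te and mt-Tp, the glutamate and proline tRNA genes, changed by -2.10 and -3.96 in LAG-3-low against WT, both called. In the stage series mt-Ts1, mt-Tq, mt-Te, mt-Tp, mt-Ti and mt-Ty passed the filter, and none was called in any of the 5 tests. The other 16 tRNA genes, mt-Tf, mt-Tv, mt-Tl1, mt-Tm, mt-Tw, mt-Ta, mt-Tn, mt-Tc, mt-Td, mt-Tk, mt-Tg, mt-Tr, mt-Th, mt-Ts2, mt-Tl2 and mt-Tt, passed in no table.

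**Figure D5:**
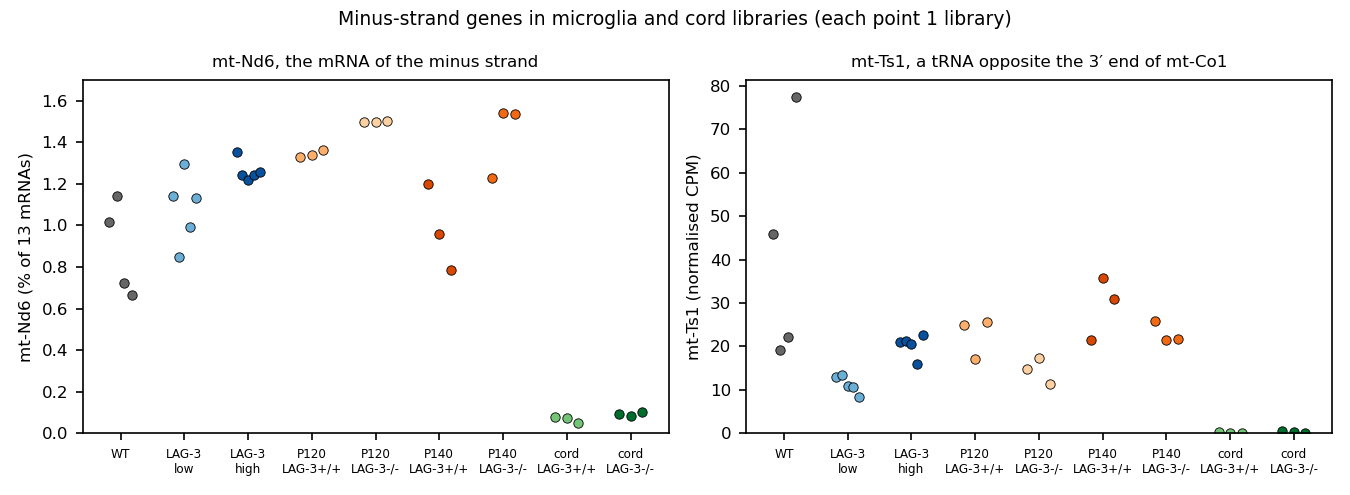
Share of the mRNA pool held by mt-Nd6, in percent, and level of mt-Ts1, in normalised CPM, for each library (points). mt-Nd6 holds 0.67% to 1.54% of the pool in microglia and 0.0505% to 0.104% in cord, and mt-Ts1 is near 0 in cord.

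Nuclear copies of mitochondrial sequence can share reads with these genes. Transcripts of 16 nuclear rows matched the mitochondrial genome at 90% identity or more over at least 200 bases, 8 of them in a block of chromosome 1 (chr1:24650616-24655278, GRCm39), and 6 reached 1 CPM in a group mean. Gm29216 (chr1:24654787-24655278), a pseudogene row 99.8% identical to mt-Co1 over 483 bases, took the most counts, with 1313, 227, 450.4 and 2743 CPM in WT, 275, 299, 239.8, 281 and 192 CPM in the low fraction and 405, 464, 405, 424 and 455 CPM in the high fraction. Set against the mt-Co1 count of the same library this was 42.9, 17.3, 18.7 and 84.9% in WT, 20.9 to 23.8% in the low fraction and 18 to 20.9% in the high fraction. The split between the rows thus varied most in WT, replicates 1 and 4 again standing apart, and the level of mt-Co1 there is uncertain to that extent. With both rows added, mt-Co1 stood at 4373, 1540.0, 2860.4 and 5974 CPM in WT, 1436, 1734, 1368, 1462 and 1037 CPM in the low fraction and 2346, 2708, 2651, 2765 and 2871 CPM in the high fraction, which left the order of the fractions as it was. Over the stage libraries Gm29216 was 17.8 to 31.4% of mt-Co1, and over the cord libraries 8.42 to 12%. Gm71269 (chr1:24651850-24652265), which matches mt-Nd3 over 416 bases, was at 12, 14.5, 9.88, 6.30 and 6.15 CPM in the low and 33.4, 39.6, 28.1, 36.0 and 44.7 CPM in the high fraction, above mt-Nd3 itself in all 5 LAG-3-high and 4 of the 5 LAG-3-low libraries. Gm28438, which matches mt-Nd3 over 345 bases, averaged 324 CPM in LAG-3+/+ and 612 CPM in LAG-3-/- cord and was at 0 in the microglial groups. The other rows at 1 CPM or more were Atp6-ps, Gm28661 and Gm13340.

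Nuclear genes of the same complexes were read from lists of the respiratory chain (75 subunits), the mitochondrial ribosome (78 proteins), mitochondrial DNA expression (48 factors) and mitochondrial tRNA synthetases (19). No member of the 4 lists was called between the sorted SOD1G93A fractions, the respiratory chain median being 0.45, or 0.07 without TMM factors. In LAG-3-low against WT 30 of 75 respiratory chain genes fell and none rose (median -0.96), among them Ndufa12 (-1.83) and Ndufb10 (-1.43) of complex I. The ribosome list had 24 lower and 1 higher, the expression list 4 lower and 1 higher, with Ssbp1 (-1.70), which coats single-stranded mitochondrial DNA, and Tefm (-2.09), an elongation factor of mitochondrial transcription, both lower, and the synthetase list none. Of the expression list 46 were tested. Over all genes 11% were called lower and 10.9% higher, so its counts were not above those shares. In LAG-3-high against WT the respiratory chain had 8 lower and 1 higher (median -0.51), the ribosome 16 lower and 2 higher, the expression list 6 lower and 1 higher, and the synthetases 1 higher, Iars2 (1.79). Over all genes 14.9% were called lower and 12.1% higher. Only the count of lower ribosome genes was above these shares.

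Between P120 and P140 in LAG-3+/+ microglia 69 of 75 nuclear respiratory chain genes rose and none fell, with a median of 1.14, among them 33 of the 36 subunits of complex I. Without TMM factors 42 were called higher and none lower (median 0.64), beside the 5.2% of all genes given for that fit. Ndufa8 and Ndufb8 of complex I changed by 1.51 ± 0.25 (SE, adjusted p = 0.00565) and 1.71 ± 0.31 (SE, adjusted p = 0.00699). The ribosome list had 48 of 78 higher and none lower. The expression list had 8 higher and 6 lower of 46 tested, where 11.9% of all genes were called higher and 15.5% lower. Among them were Lrpprc, which binds and stabilises mitochondrial mRNAs, at -1.78 ± 0.33 (SE, adjusted p = 0.0074) and Trmt10c, a subunit of the mitochondrial RNase P that frees the 5′ ends of tRNAs, at 1.27 ± 0.28 (SE, adjusted p = 0.0115). The synthetases had 1 higher and 2 lower, Lars2 at -2.48 and Iars2 at -1.31. LAG-3-/- microglia had no called member of the 4 lists between the ages with edgeR, the respiratory chain median being 0.80, where DESeq2 called 18 of its 75 genes higher and 1.92% of all genes. Loss of LAG-3 at P120 gave none either, with edgeR or, for the respiratory chain, with DESeq2 (median -0.30).

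In P140 LAG-3-/- against LAG-3+/+ microglia 14 of 75 respiratory chain genes fell (median -0.66), 3 without TMM factors, where 1.3% of all genes were lower, and 46 with DESeq2, where 10.2% were. Ndufv3 of complex I changed by -0.96 and Cyc1 of complex III by -0.83. The ribosome list had 10 lower, the expression list 2 higher (Lrpprc at 1.91 and Fastkd1, a mitochondrial RNA-binding protein, at 3.08) and 2 lower, and the synthetases 2 higher (Lars2 at 1.94 and Iars2 at 1.15). Over all genes 7.22% were called higher and 3% lower in this comparison. The interaction called no member of the 4 lists. In LAG-3-/- cord 39 of 75 respiratory chain genes rose and none fell (median 1.01), beside 12 of the 15 mitochondrial genes, and 71 were called without the fold minimum. Ndufa13 of complex I changed by 1.32 ± 0.15 (SE, adjusted p = 0.000281) and Uqcrq of complex III by 1.43 ± 0.17 (SE, adjusted p = 0.000368). The ribosome list had 14 higher, the expression list 1 lower, Ppargc1b (-1.53), a transcriptional coactivator of mitochondrial genes, and the synthetases 1 higher, Lars2 (2.24). Over all genes 4.37% were called higher and 3.15% lower in cord. For the edgeR counts with TMM factors the share of all genes called stands above with each comparison, and the lists were not tested against other genes.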

How the data were processed

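Per the labels and the study's methods, the authors trimmed paired-end reads with Trim Galore 0.6.7, quantified them against GRCm39 with Salmon 1.9.0 and summarised them to genes with tximport in R 4.2.1. The deposited values were estimated counts per gene, rounded here before testing. The annotation release and the strand setting were not given in the sources used here. Gene identifiers were matched to GENCODE vM39, with 71, 66 and 71 identifiers unmatched in the sort, stage and cord tables. Each table was fitted whole with edgeR 4.0.16 (quasi-likelihood F-test, filterByExpr with a minimum count of 10, TMM factors, Benjamini-Hochberg adjustment over all genes tested), and DESeq2 1.42.0 was an alternative. A call needed an adjusted p below 0.1 and, for sort and cord, a log2 fold change above 1 in size. The script was tested on simulated data. Shares were taken of full library totals, and CPM of filtered totals times TMM factors. Named were all 37 mitochondrial genes, the called members with the smallest p of each nuclear list, and matching nuclear rows (BLAST+ 2.17.0). The members and lists were chosen with earlier results of these data known.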

Additional observations from a re-analysis of the deposited data

Results flagged for a closer look

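In 60 groups of 4 or 5 libraries tested by Dixon's ratio of the end gap to the range, 3 values stood outside the 95% limit, where chance marks about 1 in 20 groups. All 3 were in the LAG-3-high fraction and each in a different library. mt-Nd3 was at 6.6 CPM in replicate 4, below the rest of its group (ratio 0.732). mt-Nd5 was at 424.3 CPM in replicate 5, above the rest (ratio 0.806). mt-Tp was at 0.9578 CPM in replicate 1, also away from the rest (ratio 0.744). The values of mt-Nd5 in the other LAG-3-high libraries, 334 to 351 CPM, were likewise above every LAG-3-low library.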

How the results depend on the processing

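The 8 ratios of mitochondrial share kept their direction in all 90 checks, each check being of a single ratio under a single setting. Their size varied between checks, as with the neutrophil markers left out above. Scaling from nuclear genes alone changed none of 177 gene results. Over the other settings 1592 gene results kept direction and call, 74 lost a call, 28 gained one and 27 reversed, and with 1 library left out these numbers were 1225, 79, 23 and 49. The cause of these changes was not tested. The count of genes called higher in the high fraction against the low one, 5, was 0 without TMM factors and 3 to 5 with 1 library left out. The counts against WT were 14 to 17 lower for LAG-3-low with 1 library left out, and for LAG-3-high 8 lower and 1 higher, which became 4 lower at an adjusted p below 0.05, 1 lower and 2 higher without a filter on low counts, 2 higher without a minimum fold change, 3 lower in a fit of those 2 groups, and 1 to 10 lower and 1 to 2 higher with 1 library left out (2 higher without WT replicate 1 or 4, 5 lower without LAG-3-high replicate 2 or 5). In LAG-3+/+ microglia the 6 genes higher at P140 became 2 with a minimum log2 fold change of 1. Without TMM factors 2 were higher and 5 lower. With 1 library left out 2 to 6 were higher, beside 1348 to 2175 of all genes. With matching nuclear rows added to their mitochondrial genes, a setting chosen after seeing the data, 6 were higher and 1 lower. DESeq2 called 1 gene higher between ages in LAG-3-/-, and 3 lower in LAG-3-/- at P120. A fit of those 2 groups at P120 called 1 mitochondrial gene and 29 of all 17254 genes lower. At P140 the 3 genes lower in LAG-3-/- became 0 at an adjusted p below 0.05, where 115 of 18669 genes were lower. They became 0 with a minimum log2 fold change of 1, where 270 of all genes were lower. RLE size factors gave 6, beside 837 of all genes, and DESeq2 gave 7, beside 1911. A fit of those 2 groups gave 0, and it called 0 of all 15091 genes. With 1 library left out the count was 0 to 7, beside 12 to 1701 of all genes. The interaction called 0 to 1 lower with 1 library left out (1 without P140 LAG-3-/- replicate 1), and cord 9 to 15 higher. P140 LAG-3-/- replicate 1 also weighed on calls over all genes. Without it the P140 comparison of genotypes called 1701 of all genes lower, against 561 of 18669 with all libraries. The 1 interaction call is therefore not read as particular to mitochondrial genes.

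Deviations of same-numbered libraries correlated at a mean r of 0.014 in the sort (13 pairs, -0.0215 to 0.0674), -0.00326 in the stage series (18 pairs, -0.119 to 0.0662) and 0.000967 in cord (3 pairs, -0.03 to 0.0223). Some of the sort pairs join WT to a SOD1G93A fraction and cannot share a mouse. Same-numbered low and high libraries gave 0.0195, 0.0666, -0.00134, 0.0674 and 0.0094, while differently numbered ones reached at most 0.0352. Whether the fractions shared mice cannot be settled from these values. With the replicate block 1 gene was higher in the high than in the low fraction, 1 was lower in the high fraction against WT, 0 were lower in LAG-3-/- at P140, and mt-Rnr1 in LAG-3-high against WT reversed to 0.11.

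Without TMM factors the medians of all genes moved to -0.40 (LAG-3-high against LAG-3-low), -0.39 (LAG-3-high against WT), -0.70 and -0.29 (P140 against P120 in LAG-3+/+ and LAG-3-/-), 0.47 (LAG-3-/- at P140), 0.41 (interaction) and -0.13 (cord), from -0.02, -0.08, -0.22, -0.03, 0.14, 0.18 and 0.00. The calls over all genes moved with them, from 135 higher and 441 lower to 35 and 633 between the fractions, from 2000 and 2464 to 1488 and 3234 for LAG-3-high against WT, from 2219 and 2899 to 971 and 4120 for P140 against P120 in LAG-3+/+, from 1347 and 561 to 2048 and 243 for LAG-3-/- at P140, and from 773 and 558 to 485 and 830 in cord. The gene results that reversed in direction, in log2 fold changes, were uncalled ones. Without TMM factors they were mt-Rnr2 -0.40, mt-Nd1 -0.19, mt-Tq -0.41, mt-Ty -0.14, mt-Ts1 -0.13, mt-Nd4 -0.26 and mt-Nd6 -0.26 for P140 against P120 in LAG-3+/+, mt-Nd5 -0.13 in LAG-3-/-, mt-Rnr1 0.047, mt-Nd2 0.22, mt-Nd4 0.12, mt-Nd5 0.18, mt-Nd6 0.16, mt-Tp 0.14 and mt-Nd4l 0.12 for LAG-3-/- at P140, and mt-Co2 0.20, mt-Atp8 0.084, mt-Atp6 0.10 and mt-Co3 0.028 for the interaction. Without a filter on low counts they were mt-Rnr1 0.14, mt-Co1 0.0066 and mt-Nd6 0.014 in LAG-3-high against WT and mt-Co2 0.021 for the interaction. With matching nuclear rows added mt-Nd3 was 0.33 for P140 against P120 in LAG-3-/-. mt-Nd3 for LAG-3-/- at P140 was -0.069 with RLE size factors and -0.067 with DESeq2.

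With 1 library left out, values that crossed 0 ran as follows. mt-Nd4l ran from -0.11 to 0.25 in LAG-3-low against WT, and in LAG-3-high against WT mt-Rnr1 from -0.27 to 0.48, mt-Co2 from -0.024 to 0.98, mt-Nd4 from -0.50 to 0.062 and mt-Nd6 from -0.40 to 0.11. For P140 against P120 in LAG-3+/+, mt-Rnr1 ran from -0.35 to 0.081, mt-Rnr2 from -0.037 to 0.20, mt-Ti from -0.81 to 0.16, mt-Tq from -0.11 to 0.44 and mt-Ty from -0.22 to 0.69, and in LAG-3-/- mt-Nd3 from -0.17 to 0.094 and mt-Tp from -0.27 to 1.07. For LAG-3-/- at P120 mt-Ti ran from -0.57 to 0.19 and mt-Tp from -0.051 to 0.24, and at P140 mt-Nd2 from -0.22 to 0.041, mt-Nd3 from -0.19 to 0.12 and mt-Tp from -1.08 to 0.22. For the interaction mt-Tq ran from -0.030 to 0.57, mt-Ty from -0.23 to 2.93, mt-Co2 from -0.16 to 0.18, mt-Atp8 from -0.34 to 0.062, mt-Atp6 from -0.32 to 0.11, mt-Co3 from -0.41 to 0.0058 and mt-Tp from -1.17 to 0.13. Where a group was left with 2 libraries, its spread was taken from the other groups of the table. The shares had narrow counting intervals, while most tRNA genes had too few counts to test, and the cause of their low counts was not tested.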
